A study of Saccharomyces cerevisiae with 6 samples.

Results

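TFIID and Mediator are the large protein complexes through which RNA polymerase II is brought to promoters, and the expression of their subunit genes was compared between a wild-type and a mutant strain of Saccharomyces cerevisiae. The genes were taken from a list of 39 named subunits, 14 of TFIID and 25 of Mediator. All 39 were found among the 5551 genes tested, each read by 1 probe set that names that gene alone, and no filter on low signal was applied. Both strains, MDC1 with wild-type TRA1 and MDC3 with the temperature-sensitive allele tra1-2ts, were MATa and shared the alleles ura3-52, lys2-801, ade2-101 and trp1∆63 as well as his3∆200 and leu2∆1. In both, the chromosomal copy was replaced (tra1::HIS3) and Tra1 was supplied from a centromeric LEU2 plasmid, so the controls too depend on a plasmid copy. Tra1 is the shared subunit of the SAGA and NuA4 coactivators that transcriptional activators contact. Cells grown at 30 °C in the rich medium YPD were moved to 37 °C, and total RNA was hybridized at 60, 90 and 120 min, 1 array per strain and time, 6 arrays in all.

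TFIID consists of the TATA-binding protein (TBP), encoded by SPT15, and the TBP-associated factors (TAFs). It recognises core promoters and seeds the preinitiation complex, and several of its TAFs pair through histone folds. The TAFs TAF5, TAF6, TAF9, TAF10 and TAF12 are also subunits of SAGA, which like TFIID can deliver TBP to promoters. Mediator bridges activators and RNA polymerase II: its tail binds activators, its head and middle contact the polymerase, a scaffold subunit joins these modules, and a separable kinase module restrains the complex. Many head, middle and tail names (SRB, ROX, GAL, SIN, NUT) go back to the yeast genetic screens in which the genes were found.

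Expression is given as log2 signal from robust multi-array averaging (RMA), which equalises the distributions of the arrays. Each difference between strains is therefore one against the array's other genes, and a shift common to every transcript leaves no trace. Array medians ran from 6.14 to 6.20 over all probe sets. Nothing in the labels says whether the 3 times of a strain came from separate cultures. The p-values therefore rest on how far the 3 arrays of a strain lie apart, a scatter made up of time, technical error and possibly culture. Limma also draws each gene's scatter toward a value shared by all genes, so an SE can differ from what the gene's own SDs give. The cultures were read in bulk, and fewer cells that make a transcript cannot be told apart from less of it per cell. All 6 measured genes specific to mating type a read above the mouse control probe sets, with means of 5.81 to 11.56 in MDC1 and of 6.76 to 12.96 in MDC3, and all 6 rose. Of 4 genes specific to mating type alpha, with means of 3.50 to 6.23 and 3.73 to 6.72, 2 rose and STE3 lay under the controls in both strains; the part of these shifts in the results below was not tested. TRA1 mRNA read 8.10, 8.55 and 8.68 at 60, 90 and 120 min in wild type and 9.35, 9.38 and 9.38 in tra1-2ts; it rose 1.90-fold (limma adjusted p = 0.00132), and as the probe set does not tell the alleles apart it does not check the labels.

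Of the 39 genes, 10 were higher and 2 lower in tra1-2ts, and the rises were most frequent in the Mediator head. TAF2 of TFIID and MED6 of the Mediator head were 1.76- and 1.60-fold higher. These were the only 2 of the 39 members to differ by 1.5-fold or more, where 1005 of all 5551 genes did so. The other members that rose were TAF1 and TAF7 of TFIID, SRB2, SRB4 and SRB5 of the head, MED4 and CSE2 of the middle and NUT1 of the tail; GAL11 of the tail and NUT2 of the middle fell. In the strain test, a limma fit of genotype over all 6 arrays with Benjamini-Hochberg adjustment over all genes and a threshold of 0.05, 40.6% of all 5551 genes were called, 18.3% higher and 22.3% lower. Against this background 30.8% of the TFIID and Mediator genes were called, 25.6% higher and 5.13% lower, so calls as such were not more frequent among them than among genes at large. Their differences were also small: the median absolute log2 difference was 0.15, against 0.25 over all genes, and the signed median was 0.10, against 0.00108. The count depends on the arrays: without the tra1-2ts 90 min array 7 members and 1561 of all genes were called. With both arrays of a time left out, 7 members were called without 60 min, 2 without 90 min and 6 without 120 min. Over all genes these counts were 2041, 1004 and 1726, against 2251 with all 6 arrays.

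**Figure D1:**
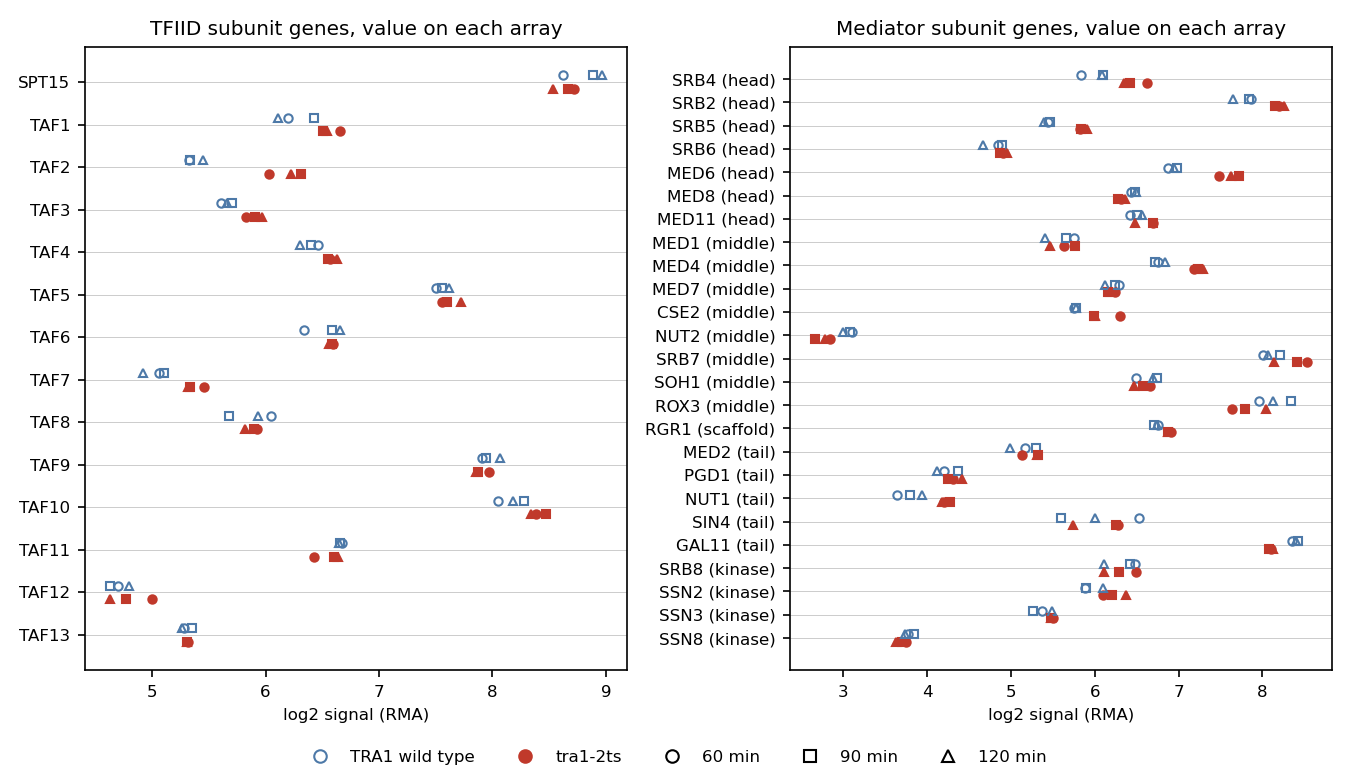
Log2 RMA signal of the 39 subunit genes on each of the 6 arrays, TFIID on the left and Mediator on the right; open blue symbols are TRA1 wild type, filled red symbols tra1-2ts, and the shape gives the minutes at 37 °C. The red symbols of TAF2 and MED6 stand clear to the right of the blue ones, while those of GAL11 stand to the left.

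The arrays of the strains did not overlap for 14 genes that were higher and 4 that were lower in tra1-2ts, which is 35.9% and 10.3% of the list, against 26.1% and 27.7% of all genes. The difference was positive at all 3 times for 17 members and negative at all 3 for 6 (43.6% and 15.4%), where 34.3% and 34.8% of all genes did so. All 12 called members were among these. Signal was near background for 3 genes: NUT2 and SSN8 had both strain means, and NUT1 its wild-type mean, under 3.93, the mean of the brightest of 4 mouse control probe sets.

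Among the TFIID genes, TAF2 differed most. TAF2 (YCR042C), whose product in fly and human TFIID contacts promoter DNA around the start site, read 5.32, 5.33 and 5.45 in wild type at 60, 90 and 120 min and 6.03, 6.31 and 6.23 in tra1-2ts. Every tra1-2ts array lay above every wild-type array. The mean rose from 5.37 ± 0.071 to 6.19 ± 0.15 (SD, n = 3), a log2 difference of 0.82 ± 0.10 (SE; adjusted p = 0.000487, limma), and this call held in all 18 alternative settings, with differences of 0.74 to 0.90. The size of this difference equalled or passed that of 90.8% of all genes.

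TAF1 (YGR274C) and TAF7 (YMR227C), whose products bind each other at the centre of TFIID, rose less. For TAF7 the wild-type values were 5.06, 5.10 and 4.92 and the tra1-2ts values 5.46, 5.33 and 5.32. TAF1, which also holds TBP through its amino-terminal end, gave 6.20, 6.43 and 6.11 in wild type and 6.66, 6.51 and 6.54 in tra1-2ts. The strains did not overlap for either gene, but at 90 min the TAF1 difference was 0.079, well under the 0.46 and 0.43 of the other times. TAF7 rose by 0.34 ± 0.093 (SE; 1.27-fold, limma adjusted p = 0.0183) and TAF1 by 0.32 ± 0.11 (1.25-fold, limma adjusted p = 0.0401). Both calls depend on single arrays. TAF1 was still called when the wild-type 90 min array was left out, and was not called under any of the other 8 omissions of an array or a time, with adjusted p from 0.0617 to 0.175. TAF7 lost its call without the wild-type 120 min (0.0532), the tra1-2ts 60 min (0.0588) or the tra1-2ts 90 min array (0.0561), and without any 1 time (adjusted p 0.0664 to 0.0939).

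No histone-fold TAF gene passed the test, which 40.6% of all genes passed. TAF3 (YPL011C), the partner of TAF10, read 5.60, 5.71 and 5.66 in wild type and 5.83, 5.91 and 5.97 in tra1-2ts. The groups did not overlap, yet the difference of 0.24 ± 0.086 (SE) had a limma adjusted p of 0.0501, just above the threshold. TAF3 passed in the fit paired by time point (0.0471), with minutes as a covariate (0.0342), with arrays centred on their medians (0.028) and with either filter on dim genes (0.0408 and 0.0464), and under no omission of an array or a time (0.0569 to 0.214). TAF10 differed by 0.23 (95% interval 0.016 to 0.45; adjusted p = 0.0809) and TAF4, which pairs with TAF12, by 0.19 (-0.0074 to 0.39; adjusted p = 0.111), in limma's fit; neither overlapped between the strains and neither passed, but TAF10 passed with arrays centred on their medians (0.0377) and both passed with quantile normalization over the tested genes (0.0196 and 0.0457). The pair TAF11 and TAF13 differed by -0.10 (-0.31 to 0.10) and 0.012 (-0.17 to 0.20), and TAF8, another partner of TAF10, by -0.0048 (-0.26 to 0.25).

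None of the 5 TAF genes shared with SAGA passed the test, and 3 of the 8 other TAF genes did, a share of 37.5% that is near the 40.6% of all genes. All 3 were higher in tra1-2ts, and 18.3% of all genes were called higher. The shared genes were TAF5, the WD-repeat scaffold subunit, at 0.065, TAF6 at 0.053, its histone-fold partner TAF9 at -0.072, TAF10 at 0.23 and TAF12 at 0.089 (log2 differences). Their median was 0.065, against 0.22 for the other 8 TAF genes and 0.00108 over all genes. At single times the median of the shared TAFs went from 0.25 at 60 min to 0.039 at 90 and -0.10 at 120 min, and that of the others was 0.16, 0.17 and 0.31. The difference between the 2 sets of TAFs was not tested. TAF14, a subunit of TFIID as well as of TFIIF and chromatin complexes, is not among the 14 TFIID genes and was listed with TFIIF; it rose by 0.55 ± 0.11 (SE; 1.46-fold, limma adjusted p = 0.00547), more than any TAF gene of the list but TAF2.

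SPT15 (YER148W), which encodes TBP, did not pass the strain test and took opposite courses in the strains. Its probe set read 8.62, 8.89 and 8.97 in wild type and 8.72, 8.66 and 8.54 in tra1-2ts, so wild type went up and the mutant down from 60 to 120 min. The groups overlapped, the mean difference was -0.19 ± 0.11 (SE; limma adjusted p = 0.218), and the slopes differed by -0.53 per 60 min (limma adjusted p = 0.686 over all genes). A single control probe set was read for each of SPT15 and SRB4, and no further control set of these reading frames was compared. The set for SPT15 is one that the annotation pairs with no gene. It read 8.32, 8.50 and 8.30 in wild type and 8.21, 8.26 and 8.16 in tra1-2ts. There tra1-2ts was below wild type at each time, by 0.11, 0.24 and 0.14, with no upward course in wild type, and the mean difference of -0.17 ± 0.094 (SE) did not pass either (limma adjusted p = 0.2 over all 6776 probe sets).

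**Figure D2:**
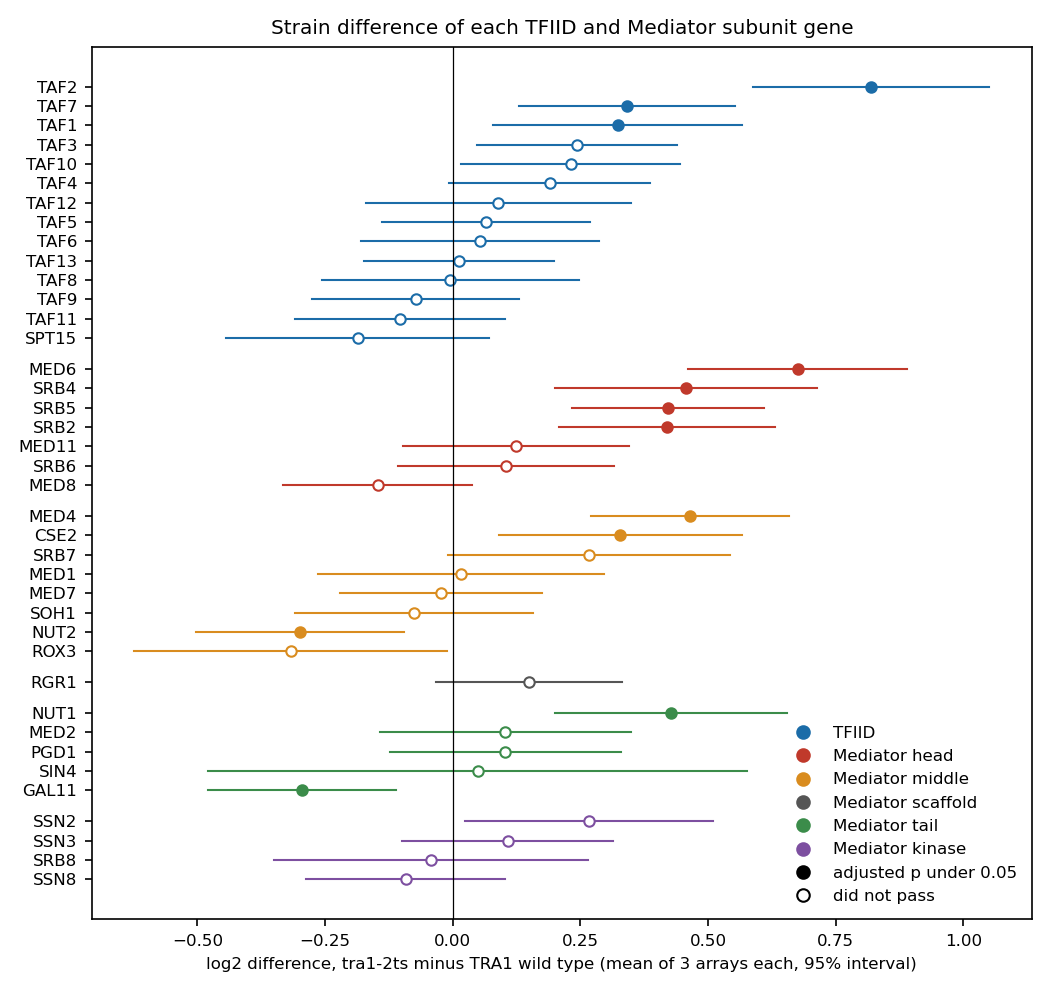
Log2 difference between tra1-2ts and TRA1 wild type for each subunit gene, with its 95% interval from limma, ordered within TFIID and the Mediator modules; filled points have an adjusted p under 0.05. In the head 4 of 7 points are filled and positive, in the kinase module none of 4 is filled.

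The Mediator head, the module that contacts RNA polymerase II most directly, was the group with the most rises: 4 of 7 genes rose and none fell, 57.1% against the 18.3% of all genes called higher, with a median difference of 0.42, against 0.00108 over all genes. MED6 (YHR058C), an essential subunit at the joint of head and middle, read 6.87, 6.98 and 6.95 in wild type and 7.49, 7.72 and 7.62 in tra1-2ts. The gap between the strains was wider than the spread within either, and the rise from 6.93 ± 0.059 to 7.61 ± 0.12 (SD, n = 3) was 0.68 ± 0.094 on the log2 scale (SE; limma adjusted p = 0.000836); it held in all 18 alternatives.

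SRB5 (YGR104C) and SRB2 (YHR041C) encode a pair of head subunits that bind each other at the movable jaw of the module. SRB5 gave 5.44, 5.47 and 5.39 in wild type and 5.82, 5.83 and 5.91 in tra1-2ts. SRB2 gave 7.86, 7.83 and 7.65 in wild type against 8.19, 8.15 and 8.26. The pair moved alike, with rises of 0.42 ± 0.082 (1.34-fold, limma adjusted p = 0.00394) and 0.42 ± 0.093 (1.34-fold, 0.00719). With both 90 min arrays left out neither passed (adjusted p = 0.0569 and 0.0611), and SRB2 did not pass without 120 min (0.062).

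SRB4 (YER022W), the central scaffold of the head and an essential gene, was read by separate probe sets. The gene's own probe set gave 5.83, 6.10 and 6.09 in wild type and 6.62, 6.42 and 6.35 in tra1-2ts. A control probe set for the same open reading frame gave 5.62, 5.64 and 5.57 in wild type against 6.17, 5.99 and 6.05. On both, all tra1-2ts arrays lay above all wild-type arrays. The differences were 0.46 ± 0.11 (SE; 1.37-fold, limma adjusted p = 0.0119) and 0.46 ± 0.090 (1.38-fold, limma adjusted p = 0.0042 over all 6776 probe sets). At the gene's own probe set the difference shrank from 0.78 at 60 min to 0.32 and 0.26, while at the control set it was 0.55, 0.35 and 0.48. The call of the gene's own set was lost without 60 min (0.0615, with a difference of 0.29) and without 90 min (0.0656).

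**Figure D3:**
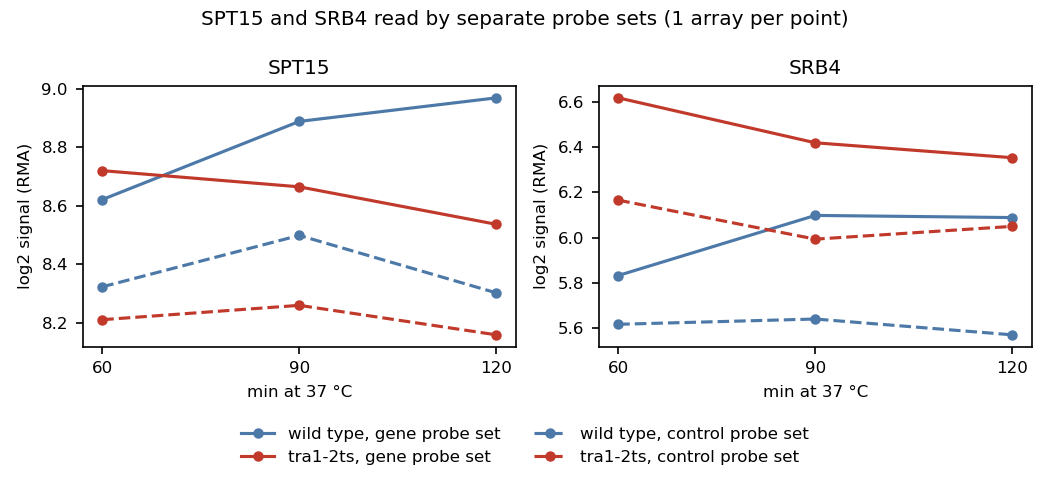
Log2 RMA signal of SPT15 and SRB4 against minutes at 37 °C, 1 array per point, for the gene's probe set (solid) and the array's control probe set of the same reading frame (dashed). The red tra1-2ts lines of SRB4 lie above the blue wild-type lines of the same probe set at all 3 times; for SPT15 the solid lines cross between 60 and 90 min and the dashed ones do not.

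The other 3 head genes did not pass the test. MED8 (YBR193C), an essential head gene, went the other way: its values were 6.43, 6.48 and 6.49 in wild type and 6.32, 6.28 and 6.36 in tra1-2ts. Every mutant array lay below every wild-type array, but the difference was only -0.15 (95% interval -0.33 to 0.039; limma adjusted p = 0.18). MED11 and SRB6, partners within the head, differed by 0.12 (-0.10 to 0.35) and 0.10 (-0.11 to 0.32), so rises as large as those of SRB2 or SRB5 lie outside these intervals. Counting ROX3 with the head, as some schemes do, lowers the median to 0.27.

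In the Mediator middle 2 of 8 genes rose and 1 fell, a share of 37.5% near the 40.6% of all genes. MED4 (YOR174W), an essential gene whose product binds that of CSE2 in the middle module, gave 6.76, 6.72 and 6.84 in wild type and 7.18, 7.23 and 7.29 in tra1-2ts. CSE2 (YNR010W) gave 5.76, 5.78 and 5.78 in wild type against 6.30, 5.99 and 6.01. Both genes stood higher on every tra1-2ts array, with MED4 steady over time and CSE2 highest at 60 min. MED4 rose by 0.46 ± 0.085 (SE; 1.38-fold, limma adjusted p = 0.00295) and lost its call only without 90 min (0.0614). CSE2 rose by 0.33 ± 0.10 (1.26-fold, limma adjusted p = 0.0343), and was still called without the tra1-2ts 120 min array but under none of the other 8 omissions, with adjusted p from 0.0541 to 0.126.

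NUT2 (YPR168W), an essential middle subunit, read 3.10, 3.08 and 2.9996 in wild type and 2.84, 2.66 and 2.79 in tra1-2ts, all under the level of the mouse controls. It fell by 0.30 ± 0.089 (SE; limma adjusted p = 0.0269); this call was lost with arrays centred on their medians (0.0528) and held under only 2 of 9 omissions of an array or a time, those of the 120 min array in wild type and the 60 min array in tra1-2ts, with adjusted p of 0.0585 to 0.244 under the others. No fold is given for NUT2, as both strains are under that level. SRB7 (YDR308C), another essential middle gene, had wild-type values of 8.003, 8.21 and 8.07 and tra1-2ts values of 8.54, 8.41 and 8.13. Its difference was 0.53 at 60 min and 0.066 at 120 min, and the mean difference of 0.27 did not pass (95% interval -0.01 to 0.54; limma adjusted p = 0.111); it passed with quantile normalization over the tested genes (0.0371) and without the tra1-2ts 120 min array (0.0343).

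ROX3 (YBL093C), a subunit at the border of head and middle, read 7.96, 8.34 and 8.12 in wild type and 7.64, 7.79 and 8.04 in tra1-2ts. It was lower in the mutant at each time, by 0.32, 0.55 and 0.085, but the groups overlapped and the mean difference of -0.32 did not pass (95% interval -0.62 to -0.011; limma adjusted p = 0.0905). It passed with minutes as a linear covariate (0.0446), and with the wild-type 60 min array (0.0497) or the mutant's 120 min array left out (0.0436). MED1, MED7 and SOH1 differed by 0.017 (-0.26 to 0.30), -0.023 (-0.22 to 0.18) and -0.076 (-0.31 to 0.16). The middle's median of -0.00313 has no stable sign, at 0.042 with arrays centred on their medians. The array median over all tested genes differed by -0.045 between tra1-2ts and wild type. Centring takes this offset out of every gene's difference alike, so the median over all genes moves with the middle's.

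RGR1 (YLR071C), the scaffold that joins head, middle and tail, had the smallest spread within strains of all 39 genes, 6.75, 6.71 and 6.75 in wild type and 6.91, 6.87 and 6.88 in tra1-2ts. The arrays of the strains did not overlap. The difference of 0.15 ± 0.080 (SE, 1.11-fold) still did not pass the limma test (adjusted p = 0.168). The gene's own SDs were 0.023 in wild type and 0.024 in tra1-2ts, and limma's SE is larger because it draws on the scatter of all genes.

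In the tail, the activator-binding module, 1 of 5 genes rose and 1 fell, close to the 40.6% called over all genes. GAL11 (YOL051W), which encodes the subunit that activators such as Gcn4 and Gal4 bind, read 8.35, 8.43 and 8.40 in wild type and 8.10, 8.08 and 8.12 in tra1-2ts. NUT1 (YGL151W), another tail gene, read 3.64, 3.80 and 3.94 in wild type against 4.20, 4.28 and 4.18. For GAL11 each mutant array was below, and for NUT1 above, all wild-type arrays. GAL11 fell by 0.29 ± 0.081 (SE; limma adjusted p = 0.0191), and was the only member above background to fall; the call was lost with quantile normalization over the tested genes (0.0838), without the wild-type 90 min (0.0588) or the tra1-2ts 90 min array (0.0805), and without 90 min (0.194) or 120 min altogether (0.0811). NUT1 rose by 0.43 ± 0.10 (SE; limma adjusted p = 0.00931); its wild-type mean of 3.79 lies under the mouse controls, so no exact fold can be given. It lost its call only without 90 min (0.113).

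MED2 and PGD1, whose products form the activator-facing end of the tail with GAL11's, differed by 0.10 (95% interval -0.14 to 0.35) and 0.10 (-0.12 to 0.33) and did not pass. SIN4 (YNL236W), which anchors the tail, varied most within strains of all 39 genes: it read 6.53, 5.60 and 6.001 in wild type and 6.28, 6.25 and 5.75 in tra1-2ts. With SDs of 0.46 and 0.30 its difference of 0.049 has an interval of -0.48 to 0.58, which takes in a rise like that of MED4 and a fall like that of GAL11.

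None of the 4 genes of the kinase module passed the test, which 40.6% of all genes passed. SSN3 (YPL042C), the cyclin-dependent kinase, gave 5.37, 5.27 and 5.49 in wild type and 5.50, 5.48 and 5.48 in tra1-2ts. Its cyclin gene SSN8 (YNL025C) gave 3.77, 3.85 and 3.73 in wild type against 3.75, 3.70 and 3.63, under the mouse controls on average. Both pairs of groups overlapped, with differences of 0.11 (95% interval -0.10 to 0.31) and -0.092 (-0.29 to 0.10). SRB8 (YCR081W), which encodes the subunit that switches the kinase on, gave 6.48, 6.42 and 6.11 in wild type against 6.49, 6.29 and 6.11. SSN2 (YDR443C), which links the module to the rest of Mediator, gave 5.88, 5.89 and 6.10 in wild type against 6.10, 6.21 and 6.37. SRB8 went down and SSN2 up with time in both strains. The strains differed by -0.043 in SRB8 (-0.35 to 0.26) and by 0.27 in SSN2 (0.023 to 0.51; limma adjusted p = 0.0762), and SSN2 passed in the fit paired by time point (0.0346), with minutes as a covariate (0.0259) and without the wild-type 120 min array (0.0451).

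**Figure D4:**
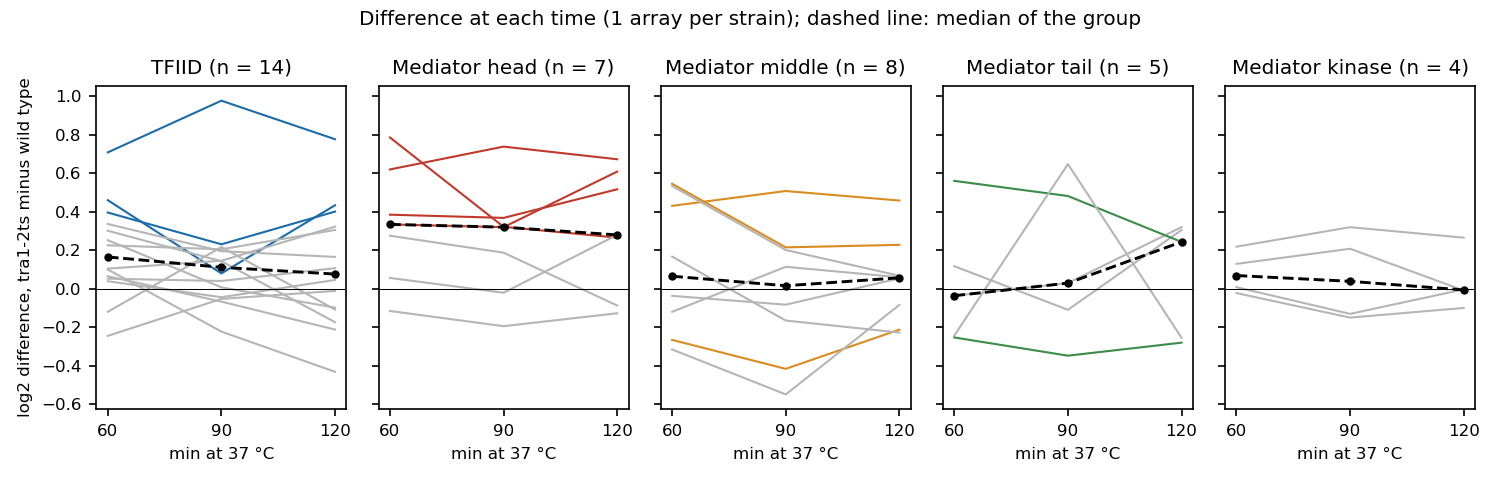
Log2 difference between tra1-2ts and wild type at 60, 90 and 120 min for each gene of TFIID and of 4 Mediator modules (coloured: called in the strain test; grey: not called), with the group median dashed; each point rests on 1 array per strain. The head median stays between 0.28 and 0.33 and the kinase median near 0.

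By module the medians of the strain difference were 0.077 for TFIID (3 of 14 called), 0.42 for the head (4 of 7), -0.00313 for the middle (3 of 8), 0.10 for the tail (2 of 5) and 0.033 for the kinase module (0 of 4). The share called was 21.4% for TFIID, below the 40.6% of all genes, and near it in the middle and the tail. The head's 57.1% was above it. All calls in TFIID and the head were higher, so that 21.4% and 57.1% also stand against the 18.3% of all genes called higher. With arrays centred on their medians the TFIID median was 0.12 and the kinase median 0.078. Centring moves every gene's difference alike, and the median over all genes with it. Without SSN8 the kinase median was 0.11. With ROX3 counted in the head and NUT1 in the middle the medians were 0.27 for the head and 0.14 for the middle. At 60, 90 and 120 min the head median was 0.33, 0.32 and 0.28, and the TFIID median 0.16, 0.11 and 0.075. The tail median was -0.037, 0.028 and 0.24. With few genes in a module and members chosen by name, these medians are given as a description and no difference between modules was tested.

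None of the 39 genes passed the time test, a slope over minutes shared by both strains in limma; 0.324% of all genes did. At an unadjusted p under 0.05, 3 of the 39 did so, against 16.2% of all genes: SRB8 at -0.38 per 60 min (adjusted p = 0.134), SSN2 at 0.24 (0.275) and SIN4 at -0.53 (0.304), all from limma. SRB8 was 0.37 lower at 120 than at 60 min in wild type and 0.38 lower in tra1-2ts. Of the members called between strains, none reached an unadjusted p under 0.05 for time. Slopes ran from -0.53 to 0.28 per 60 min, 19 positive and 20 negative.

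In limma no gene of the whole array passed the test of a slope difference between strains, which leaves 2 residual degrees of freedom, while 7.06% had an unadjusted p under 0.05. Among the 39 these were SPT15, described above, and SRB4, whose slope differed by -0.52 per 60 min (limma adjusted p = 0.691). Both values come from the genes' own probe sets. At the control probe sets the strain difference showed no steady change from 60 to 90 and 120 min. It was -0.11, -0.24 and -0.14 for SPT15 and 0.55, 0.35 and 0.48 for SRB4. Besides SPT15, 4 genes kept 1 direction over the 3 times in wild type and the opposite one in tra1-2ts: TAF6 and TAF9, which pair in TFIID and SAGA, went up in wild type and down in tra1-2ts, as did MED11, and TAF11 did the reverse. TAF6 went from 6.34 to 6.66 in wild type and from 6.59 to 6.56 in tra1-2ts, with a limma adjusted p of 0.752 for the slope difference. Over all genes, 5.67% showed such opposed courses.

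Other genes of the RNA polymerase II machinery included larger differences than any TFIID or Mediator gene. Of 44 measured genes of a list of 46 (polymerase subunits, the general factors TFIIA to TFIIH, regulators of TBP and SAGA subunits other than TAFs and Tra1), 10 rose and 5 fell (TFB5 and SUS1 were not read), a share of 34.1% against the 40.6% of all genes. By direction 22.7% were higher and 11.4% lower, against 18.3% and 22.3% of all genes. BUR6, a subunit of the NC2 factor that binds TBP on promoters, read 8.48, 8.48 and 8.49 in wild type and 9.75, 9.85 and 9.79 in tra1-2ts. NCB2, the other NC2 subunit, read 6.98, 7.33 and 7.13 in wild type against 7.74, 8.05 and 7.77. Both genes of this pair were well separated, and rose 2.49-fold (limma adjusted p = 3.83e-05) and 1.63-fold (0.00252). Neither TBP itself (SPT15) nor MOT1, which strips TBP from DNA, passed; MOT1 differed by 0.19 (0.285, limma).

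Of 12 RNA polymerase II subunit genes 4 fell and 1 rose, 41.7% called against 40.6% of all genes, with a median of -0.13. By direction 33.3% were lower and 8.33% higher, against 22.3% and 18.3% of all genes. RPB5, which is shared by RNA polymerases I, II and III, fell 2.19-fold, from 8.14 ± 0.21 to 7.01 ± 0.063 (SD, n = 3; limma adjusted p = 0.00023). Of 12 SAGA subunit genes 4 rose and 1 fell, again 41.7% called, with 33.3% higher and 8.33% lower. Their median was 0.048, against 0.065 for the TAFs that SAGA shares and 0.00108 over all genes. They ranged from -0.40 to 0.72, and the shared TAFs, none of them called, from -0.072 to 0.23. Among the called SAGA genes, ADA2, SPT7 and SPT20 differed by 0.72, 0.64 and 0.45 on the log2 scale (limma adjusted p = 0.00115, 0.00133 and 0.00383). SGF29, the subunit that reads methylated histone H3, differed by -0.40 (limma adjusted p = 0.00685). Of the 9 TFIIH genes 1 rose (11.1%), and of the 8 genes of TFIIA, TFIIB, TFIIE and TFIIF 2 rose (TOA1 and TAF14). None of these genes fell, where 18.3% of all genes were called higher and 22.3% lower.

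**Figure D5:**
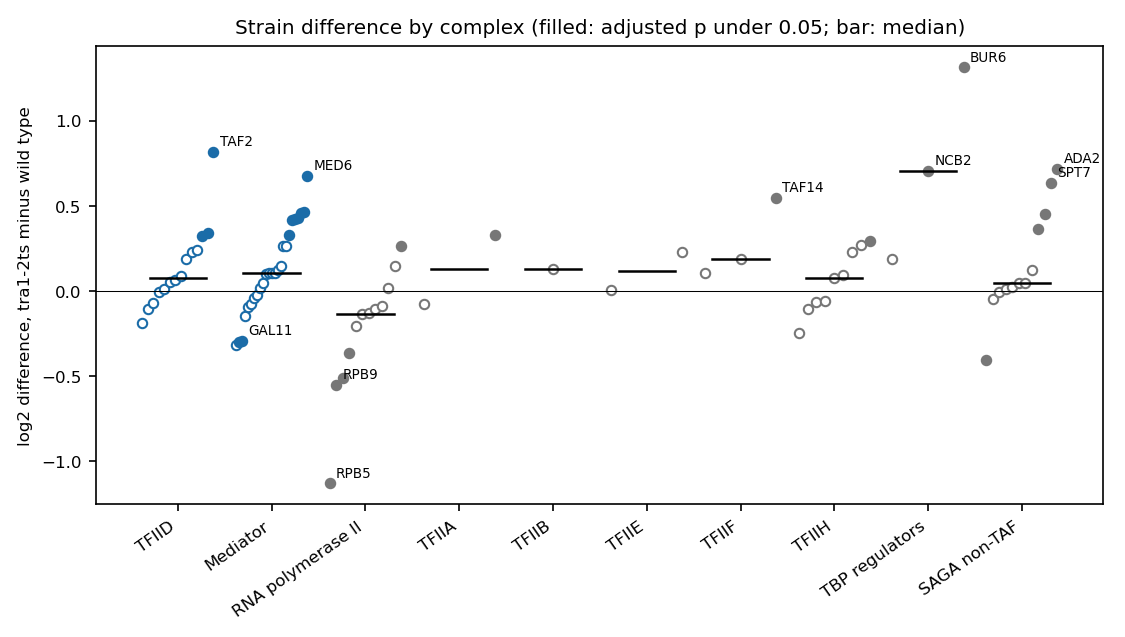
Log2 difference between tra1-2ts and wild type of each measured gene by complex, TFIID and Mediator in blue and the other machinery in grey; filled points have an adjusted p under 0.05 and the bar is the median. BUR6 at 1.32 and RPB5 at -1.13 lie outside the range of the 39 subunit genes, -0.32 to 0.82.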

How the data were processed

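What was deposited is 1 log2 value per probe set and array; the submitters' processing notes name RMA and oligo, an R package, without versions. Of 6776 probe sets, 5668 name 1 gene in the platform annotation, 183 several and 925 none or are controls; the first were matched by gene ID to RefSeq R64 symbols, and the brightest probe set was kept for the 91 genes with more than 1. No coordinates are given, as the sources used here tie the array to no genome build. Limma 3.58.1 in R 4.3.3 was fitted over all 5551 genes, two-sided: genotype alone for strain (4 residual degrees of freedom), genotype and a shared slope for time (3), and a slope per strain (2). The fits were run on simulated data with planted effects and independent noise on each array. That checks the code and not the p-values given here, as the scatter of the real arrays includes time. Intervals are limma's 95% intervals, and the number of arrays limits the precision.

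The members, the module assignment, the lists and the tests were chosen with earlier results of these data known. Values on every array are given for members past the strain test, for SPT15, TAF1, SRB4, RGR1 and the kinase module, and also for TAF3, MED8, SRB7, ROX3 and SIN4, chosen after their values were seen; of the other machinery, the 6 called genes with the smallest p are named, besides MOT1, TOA1, TAF14 and SGF29, named after their values were seen. Alternatives tried were a block for the time point, minutes as a covariate, other scalings, filters on dim genes, other moderation, the dimmest probe set, a threshold of 0.01, other codings of time, another module scheme and each array or time left out; the control probe sets of SPT15 and SRB4 were added after seeing the data. The number in an array's title marks its time, so same-numbered arrays share a time point by their labels; their deviations from the strain means correlated across genes at r = 0.31, 0.066 and 0.33 for 60, 90 and 120 min over all genes, and at 0.26, -0.31 and 0.059 over the 39 members. Promoter and protein sequences were not used here.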

Additional observations from a re-analysis of the deposited data

How the results depend on the processing

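Of the 39 genes, no called difference changed sign under any alternative, and TAF2 and MED6 were called under all. Over the omissions of an array or a time, the called members numbered 2 to 12, with 2 to 10 higher and 0 to 2 lower, and the called genes of the whole array 1004 to 2214, with 383 to 992 higher and 621 to 1222 lower; without the tra1-2ts 90 min array 651 genes were higher. At an adjusted p under 0.01, 6 members passed, 6 higher and 0 lower, and 1384 of all genes, 576 higher and 808 lower. The lower members numbered 3 with minutes as a covariate and 1 with arrays centred on their medians, with quantile normalization, and with either filter on dim genes, which leaves NUT2 untested. With the time point as a paired replicate block 14 members passed, 12 higher and 2 lower, and 2520 of all genes; TAF3 and SSN2 were added and no call was lost. The time test called 7 genes with time as a factor and 0 to 12 with an array left out, and no member under any alternative. The slope difference called 0 to 210 genes with an array left out, where 1 residual degree of freedom remains, and 0 to 1 members, the 1 without the wild-type 120 min array. Centring moved the module medians to 0.12 for TFIID, 0.46 for the head, 0.042 for the middle, 0.19 for RGR1 and 0.078 for the kinase module. It takes the same offset of -0.045 between the strains' array medians out of every gene's difference. The median over all genes therefore moved by as much. The other module scheme gave 0.27 for the head and 0.14 for the middle, and without genes near background the kinase median was 0.11. The cause of the other shifts was not tested beyond what each alternative changes by construction. NUT2, SSN8 and NUT1 are limited by signal near background.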
